A study of Mus musculus with 6 samples.

Results

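Imprinted genes, which are expressed mainly from the allele of 1 parent, were examined in immortalized mouse fibroblasts (MF). The 48 genes were chosen by symbol from known imprinted clusters. Of these, 37 were found by that symbol among the 19078 genes of the table, and the other 11 were not analysed here. RNAseq was performed on poly(A)-selected RNA from 3 *Ms4a15* OE and 3 control libraries. *Ms4a15* OE cells are pooled MF that carry a CRISPR activation system and a guide for *Ms4a15*, delivered by lentivirus and not taken from a single clone. Control cells are labelled wild type, and the methods of the study describe infection with empty lentivirus. According to these methods, the fibroblasts are embryonic, carry a conditional *Gpx4* deletion and express Cre-ERt2. Nothing in the sources used here says whether the libraries of a group came from separate cultures.

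Levels are the authors' mean normalized counts, taken over the 6 libraries of both groups together. This mean has no SD, and it holds no difference between *Ms4a15* OE and control, so no comparison of the groups was made. It also cannot separate fewer cells expressing a gene from less RNA per cell. The mean of *Ms4a15* itself was 638 normalized counts, with no share per group. Intervals given below are 95% Poisson intervals, which cover counting error only and not the spread between libraries. The size factors that scale the counts of the libraries ran from 0.887 to 1.14, a ratio of 1.28. Total reads per library are not known from the table. No gene of the table had a mean of 0, and the lowest mean was 0.147 normalized counts. Shares of genes given below are therefore shares of genes with reads. Whether the imprinted genes not found by symbol had no reads was not determined.

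The fibroblast label was checked against marker genes. Of 12 fibroblast markers, 11 had a mean of at least 10 normalized counts, led by *Col1a2*, a collagen chain, at 135155, and the list added up to 522343. The exception was *Lum*, an extracellular matrix proteoglycan, at 0.675. Of 6 epithelial markers, *Krt8* alone passed 10, at 10.9, and the list added up to 15.01, with *Epcam* at 0.176. Myeloid markers added up to 728 with 4 of the 5 found at 10 or more, led by *Lyz2* at 534, while *Ptprc*, the pan-leukocyte gene, had 11.1. Endothelial markers added up to 125, with 2 of 4 at 10 or more and *Cdh5* leading at 107. Of 2 neuronal markers found, *Tubb3* had 2463 and *Syt1* 3.43. Of 2 adipocyte markers found, *Plin1* had 10.5 and *Adipoq* 0.364, and *Des*, the muscle marker found, had 119.

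Imprinted genes lie in clusters, each governed by a control region that is methylated on the maternal or on the paternal copy. That mark is laid down in the germ line and kept through cell division by the DNA methyltransferase DNMT1 and by zinc finger proteins that recruit TRIM28. Many of these genes regulate fetal and placental growth, and several are strongly expressed in the embryo and silenced after birth. The table carries no allele information, so whether the genes were imprinted in these cells was not measured.

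The Dlk1-Meg3 cluster on chromosome 12 is expressed in part as long non-coding host transcripts of miRNAs. Between *Dlk1* and *Dio3*, 58 miRNA hairpins are annotated, of which 14 lie inside *Mirg* and 3 inside *Rian*. The mature sequences (RefSeq, GRCm38.p6) of 3 miRNAs are shown because their hosts are the non-coding members of the cluster with reads. Capitals mark the seed, bases 2 to 8, and the seeds differ from each other. The miRNAs themselves were not measured. miR-134-5p, inside *Mirg*, lies at chr12:109734145-109734166, miR-410-3p, also inside *Mirg*, at chr12:109743764-109743784, and miR-370-3p, inside *Rian*, at chr12:109618305-109618326, each on the forward strand.
miR-134-5p: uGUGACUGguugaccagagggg
miR-410-3p: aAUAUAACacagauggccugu
miR-370-3p: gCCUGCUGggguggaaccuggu

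ZFP57, a zinc finger protein that keeps imprints, binds the hexanucleotide TGCCGC when its CG is methylated. The 250 bases before each RefSeq start of a gene were searched for TGCCGC on both strands. Of the 37 genes found in the table, 31 had such a window, and 6 of their 49 windows (12.2%) held the motif, compared with 8.68% of 32851 promoter windows of the same length. Overlapping windows of 1 gene share a motif, and the windows belong to 5 genes, *Copg2*, *Mcts2*, *Mest*, *Osbpl5* and *Plagl1*. A match describes the letters only, as neither methylation nor binding was measured. Windows of 4 of these genes are shown because they hold the motif both in genes with almost no reads, *Mest* with 1 and *Plagl1* with 2 in all, and in expressed genes, *Mcts2* at a mean of 724 and *Copg2* at 2353. Capitals mark TGCCGC or its reverse complement, and each window is printed on the strand of its gene. The windows (GRCm38.p6) are chr6:30737800-30738049 (forward) for *Mest*, chr10:13090582-13090831 (forward) for *Plagl1*, chr6:30896795-30897044 (reverse) for *Copg2* and chr2:152686898-152687147 (forward), which lies inside *H13*, for *Mcts2*. The *Mest* and *Plagl1* windows lie inside the annotated spans of these genes, which have further starts upstream, and the *Mest* window holds 2 matches.
Mest: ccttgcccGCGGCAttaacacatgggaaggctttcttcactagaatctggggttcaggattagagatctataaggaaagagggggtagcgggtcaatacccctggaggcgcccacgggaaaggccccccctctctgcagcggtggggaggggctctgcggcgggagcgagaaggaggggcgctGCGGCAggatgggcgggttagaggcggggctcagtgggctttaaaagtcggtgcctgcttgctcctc
Plagl1: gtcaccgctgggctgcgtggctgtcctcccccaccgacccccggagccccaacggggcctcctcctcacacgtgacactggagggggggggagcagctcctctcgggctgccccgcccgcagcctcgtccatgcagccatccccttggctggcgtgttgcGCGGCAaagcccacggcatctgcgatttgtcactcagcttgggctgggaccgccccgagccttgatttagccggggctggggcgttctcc
Copg2: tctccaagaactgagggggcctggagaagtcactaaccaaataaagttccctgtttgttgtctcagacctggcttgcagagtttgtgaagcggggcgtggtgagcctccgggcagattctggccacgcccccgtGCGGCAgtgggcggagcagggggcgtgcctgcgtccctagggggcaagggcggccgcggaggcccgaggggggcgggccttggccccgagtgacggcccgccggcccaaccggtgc
Mcts2: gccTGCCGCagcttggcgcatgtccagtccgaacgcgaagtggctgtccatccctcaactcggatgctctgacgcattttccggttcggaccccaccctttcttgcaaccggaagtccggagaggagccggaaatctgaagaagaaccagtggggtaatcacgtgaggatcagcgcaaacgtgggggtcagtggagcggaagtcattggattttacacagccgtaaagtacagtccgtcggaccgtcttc

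Of the 37 genes, 20 had a mean of at least 10 normalized counts (54.1%, compared with 67.7% of all genes in the table) and 17 were under 5, which are the higher and the lower class in what follows. The highest gene of the lower class was *Grb10* at 4.79, and the lowest of the higher class was *Asb4* at 30.1. The higher class had 12 genes at 1000 or more (32.4%, compared with 35.0% of all genes), 6 from 100 to 1000, and 2, *Airn* and *Asb4*, under 100. The median was 41.2 normalized counts, compared with 237 over all genes. The lower class held 82 reads in total over the 6 libraries, with 1 read each for 6 genes and at most 3 reads for 12. Of the 15 genes with expression from the paternal allele where they are imprinted, 8 were in the higher class, and of the other 22, 12 were.

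**Figure D1:**
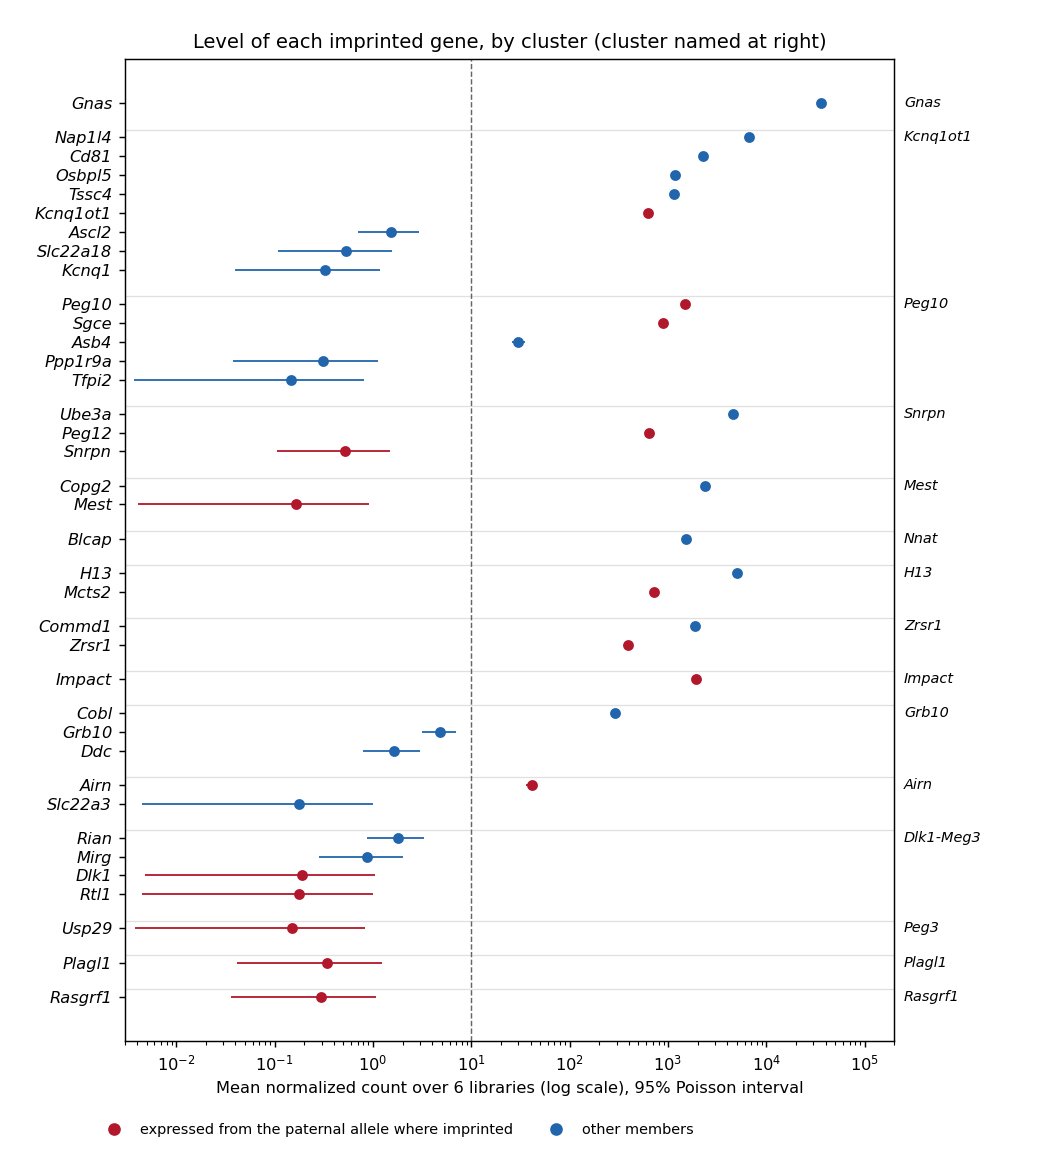
Mean normalized count of 37 imprinted genes over the 6 libraries, on a log scale, ordered by cluster. Points are the authors' means, bars are 95% Poisson intervals (counting error only, hidden by the point where narrow), and the dashed line marks 10. Red points are genes expressed from the paternal allele where imprinted, and the points nearest the line are *Grb10* at 4.79 and *Asb4* at 30.1.

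Low means are sums of a few whole reads, each worth a step set by the size factor of its library. All 5290 genes of the table with a mean under 5 could be written as whole reads in exactly 1 way (100.0%, within a tolerance of at most 1.7e-09 normalized counts). This gave the reads of the 17 low imprinted genes in each library. Over the 5290 genes, the libraries held from 5206 to 7664 reads. Libraries were named A to F by rising size factor, and they were not assigned to *Ms4a15* OE or control, since the table does not name them.

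**Figure D2:**
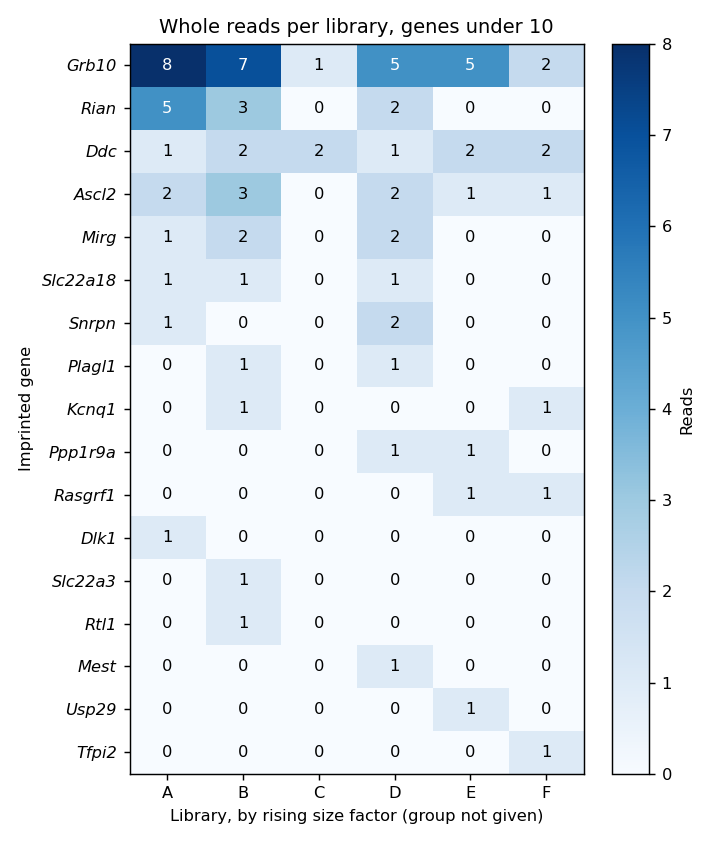
Whole reads of the 17 imprinted genes with a mean under 10, in libraries A to F, which are ordered by rising size factor and not assigned to a group. Darker squares mark more reads, from 0 to the 8 reads of *Grb10* in library A.

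At the Dlk1-Meg3 cluster, the genes found were near the lower limit of detection. *Dlk1* (chr12:109452823-109463336), a membrane protein of preadipocytes that is cleaved to a soluble factor, had 1 read, in library A (mean 0.188, interval 0.00476 to 1.05). *Rtl1*, a retrotransposon-derived gene needed in the placenta, had 1 read, in library B. *Rian*, the host of small nucleolar RNAs and miRNAs, had 5 reads in library A, 3 in B, 2 in D and 0 in C, E and F, a mean of 1.80 (0.863 to 3.31) that was 1.03 without library A. *Mirg* had 1 read in library A, 2 in B, 2 in D and 0 in C, E and F, a mean of 0.870 (0.282 to 2.03). The hosts of the miRNAs shown above were thus each found in libraries A, B and D. *Meg3* and *Dio3* were not analysed here. Around the cluster, the nearest located genes at 10 or more were *Wdr25* at 133, 424 kb to the left of *Dlk1*, and *Ppp2r5c*, a phosphatase subunit, at 4800 and 984 kb to the right.

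The Peg3 and H19 clusters were barely represented. *Usp29*, a ubiquitin-specific protease gene that starts beside *Peg3*, had 1 read, in library E (mean 0.151, interval 0.00381 to 0.839). *Peg3*, a zinc finger gene, and *Zim1* were not analysed here, and neither was *H19*. *Igf2*, the fetal growth factor gene that shares enhancers with *H19*, had 3 reads in library A, 1 in B and 0 in C, D, E and F, a mean of 0.742 (0.202 to 1.90) that was 0.213 without library A. *Igf2r*, the receptor that takes up and degrades IGF2, had 2590.

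At the Mest cluster, 1 gene was in the lower class and its neighbour in the higher. *Mest* (chr6:30723547-30748465), an enzyme of the alpha/beta-hydrolase fold expressed in mesoderm, had 1 read, in library D (mean 0.163, interval 0.00413 to 0.909). *Copg2* (chr6:30747554-30896794), a subunit of the COPI vesicle coat, overlaps the end of *Mest* by 912 bases on the opposite strand and had 2353 (2314 to 2392). *Tsga14*, 29.8 kb on the other side of *Mest*, had 775. Both *Mest* and *Copg2* held TGCCGC in the windows shown above.

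At the Peg10 cluster, 3 of the 5 genes found were in the higher class. *Peg10*, a retrotransposon-derived gene essential for the placenta, and *Sgce*, the epsilon subunit of sarcoglycan, start in opposite directions 0.099 kb apart. *Peg10* had 1473 (1442 to 1504) and *Sgce* 885 (861 to 909). Per kilobase of longest transcript, *Peg10* was 1.10 times as high as *Sgce*. The order rests on the length used, as *Peg10* had 20.1 TPM (a scale per transcript length, described below) and *Sgce* 7.57 with the union of exons, but 2.59 and 12.5 with the shortest transcripts. *Asb4*, a subunit of a ubiquitin ligase, had 30.1 (25.9 to 34.8). *Ppp1r9a*, an actin-binding phosphatase regulator, had 1 read in library D and 1 in E, and *Tfpi2*, a protease inhibitor, had 1 read, in library F. *Calcr* was not analysed here. Among the other imprinted genes nearby, *Pon2* and *Pon3* had 2593 and 917, while *Pon1* had 2 reads, 1 in library C and 1 in E. *Casd1*, 31.0 kb beyond *Sgce*, had 1316.

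**Figure D3:**
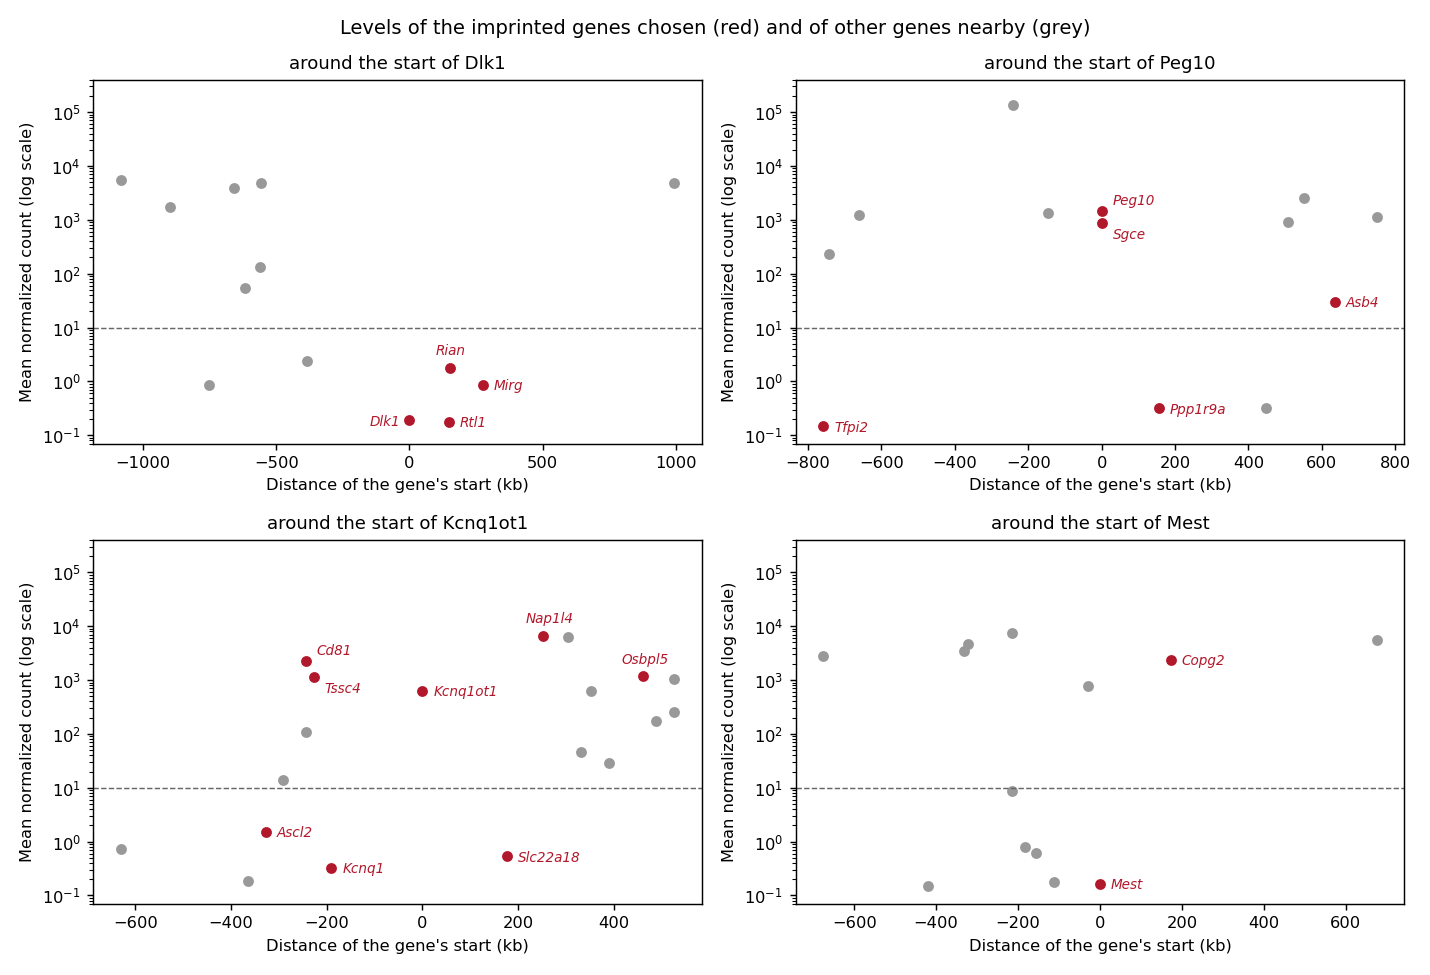
Mean normalized count (log scale) of genes among the 37 (red, named) and other located genes (grey, some of them imprinted too) against the distance in kb of their start from that of *Dlk1*, *Peg10*, *Kcnq1ot1* or *Mest*. The dashed line marks 10, and the red points of the Dlk1 panel lie under it, while each other panel has red points on both sides.

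The Kcnq1ot1 cluster had genes in both classes side by side. *Kcnq1ot1* (chr7:143203458-143296549), a non-coding RNA that silences neighbouring genes on the paternal copy, had 629 (609 to 649). It lies in full inside *Kcnq1*, a potassium channel gene on the opposite strand, which had 1 read in library B and 1 in F. Whether reads were counted by strand is not given in the sources used here, so values of genes that overlap on opposite strands are uncertain. *Slc22a18*, a transporter gene, had 1 read each in libraries A, B and D, although *Nap1l4*, a histone chaperone gene 14.2 kb away, had 6599 (6534 to 6665). *Ascl2*, a transcription factor of the trophoblast, had 2 reads in library A, 3 in B, 0 in C, 2 in D, 1 in E and 1 in F. *Cd81*, a tetraspanin gene, had 2276, *Tssc4*, which encodes a splicing factor, had 1139 at 1.31 kb from it, and *Osbpl5*, an oxysterol-binding protein gene, had 1179. *Phlda2* was not analysed here.

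At the Snrpn cluster, *Ube3a* (chr7:59228750-59311536), a ubiquitin ligase imprinted in neurons, had 4583 (4529 to 4638). *Peg12* had 633 (613 to 654). *Snrpn*, which encodes a spliceosomal protein of neurons, had 1 read in library A and 2 in D. It shares 9601 bases of its span with *Snurf* on the same strand, for which the mean was 79.7, so the split of reads between *Snrpn* and *Snurf* is uncertain. *Ndn* and *Magel2* were not analysed here. *Mkrn3*, 41.7 kb from *Peg12*, had 102.

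At the Grb10 cluster, *Grb10* (chr11:11930508-12038683), an adaptor that restrains insulin receptor signalling, had the highest mean of the lower class. It had 8 reads in library A, 7 in B, 1 in C, 5 in D, 5 in E and 2 in F, a mean of 4.79 (3.18 to 6.92). *Ddc*, the decarboxylase of dopamine and serotonin synthesis, had 1 or 2 reads in each of the 6 libraries (mean 1.65). *Cobl*, an actin nucleator, had 287 (273 to 301), at 198 kb from *Grb10*.

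The remaining clusters hold few genes. *Gnas* (chr2:174284320-174346744), which encodes the stimulatory G protein alpha subunit and several imprinted variants, had 35475 (35324 to 35626), higher than 99.4% of all genes. Its variants were counted together, and *Nespas*, the antisense transcript that overlaps it, had 40.1. *H13*, a signal peptide peptidase, had 5043 and *Mcts2*, an intronless gene inside it, 724. *Commd1*, a regulator of copper handling, had 1881 and *Zrsr1*, an intronless gene inside it, 389. *Mcts2* and *Zrsr1* arose by retrotransposition and have close paralogs, and both overlap their host, so their reads are uncertain. *Impact*, a regulator of the stress kinase GCN2, had 1928. *Blcap*, the host of *Nnat*, had 1513, and *Nnat* was not analysed here, nor was *Zdbf2*. *Airn*, the non-coding RNA antisense to *Igf2r*, had 41.2 (36.3 to 46.7), and per kilobase of longest transcript *Igf2r* was 9.71 times as high. This ratio rests on the length used, as it was 24.3 with the union of exons and 111 with the shortest transcript. *Slc22a3*, a cation transporter gene silenced through *Airn* in the placenta, had 1 read, in library B. *Plagl1*, a zinc finger gene, had 1 read in library B and 1 in D, between *Sf3b5* at 1077 and *Ltv1* at 4520. *Rasgrf1*, a Ras exchange factor, had 1 read in library E and 1 in F.

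Levels of different genes were compared as TPM, here the mean per kilobase of the longest transcript scaled to the usual TPM total over the 16161 genes with a length. The median gene had 10.5 TPM, and 15 of the 37 imprinted genes were above it. *Gnas* had 597 TPM, or 57.0 times the median gene, followed by *Nap1l4* at 192, *Cd81* at 94.1, *H13* at 64.4 and *Mcts2* at 52.8. The order after *Nap1l4* changed with the length, as *Mcts2* came next with the union of exons and *Copg2* with the shortest transcript. The length setting moved these values, from 288 to 855 TPM for *Gnas* and from 9.19 to 72.1 TPM for *Mcts2* between the union of exons and the shortest transcript. Under each setting, all genes were rescaled to the same total. *Mcts2* kept its length of 912 bases, so its shift came from this rescaling and not from its own length. *Gnas* took 45.9% of the 1300 TPM of the 37 genes, but 29.1% of 988 with the union of exons. At the other end of the higher class, *Kcnq1ot1* had 0.449 TPM over its annotated transcript of 93092 bases. With no length taken into account it would stand 35.1 times as high, so its place rests on that annotation.

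**Figure D4:**
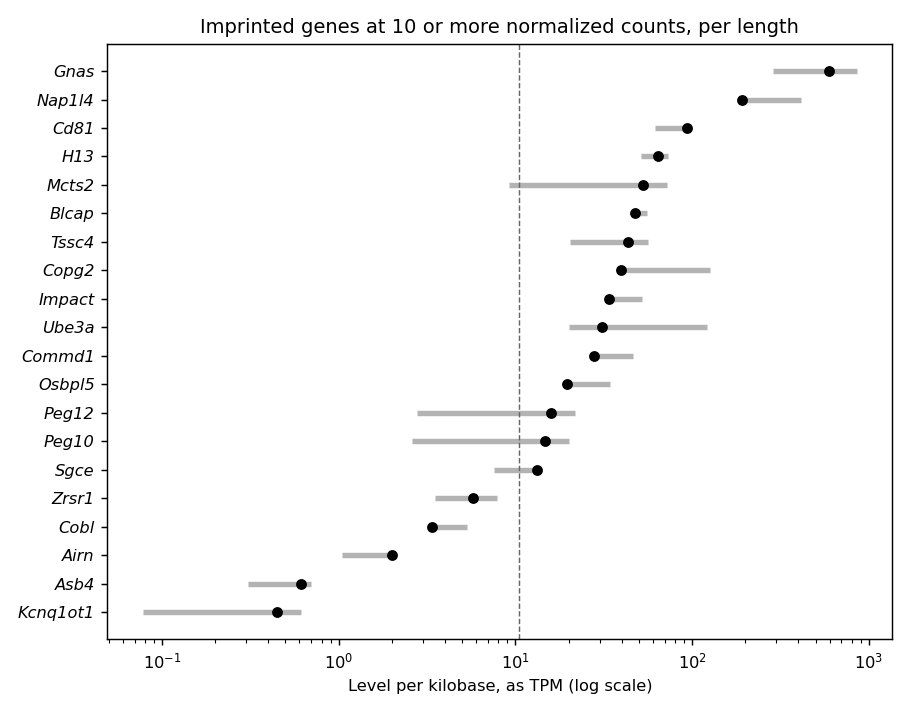
Level per kilobase of transcript, as TPM on a log scale, of the 20 imprinted genes with a mean of at least 10. Points use the longest transcript, grey bars span the values with the union of exons and the shortest transcript, and the dashed line is the median of all genes with a length. *Gnas* is first at 597 and *Kcnq1ot1* last at 0.449.

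Summed by cluster on the same scale over the genes chosen, levels spanned a wide range, with 11 of 15 clusters at 1 TPM or more. The Gnas cluster had 597, as *Gnas* alone. The Kcnq1ot1 cluster had 350, of which *Nap1l4* made 54.9%, and the H13 cluster had 117. The Nnat cluster had 47.7, all from *Blcap*, the Snrpn cluster 46.8, the Mest cluster 39.5, the Impact cluster 34.0, the Zrsr1 cluster 33.5 and the Peg10 cluster 28.6. The Grb10 cluster had 3.51, of which *Cobl* made 96.7%, and the Airn cluster 1.996. These sums leave out partners that were not among the genes chosen, such as *Igf2r* with 19.4 TPM beside *Airn* and *Snurf* with 24.5 TPM at *Snrpn*. The value of *Snurf* rests on 79.7 normalized counts over an annotated transcript of 216 bases. The Dlk1-Meg3 cluster had 0.0344, and the Peg3, Plagl1 and Rasgrf1 clusters had less. The sums and their order rest on the length used. With the shortest transcript, *Copg2* alone had 127 TPM, compared with 73.1 for *H13* and 9.19 for *Mcts2*. With the union of exons, *Airn* had 1.04 TPM, close to the minimum of 1. Without the leading gene of each cluster, 5 clusters had 1 TPM or more.

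Of 13 listed factors that set or keep imprints, 12 were found, each with a mean of at least 10, compared with 67.7% of all genes. The methyltransferase genes *Dnmt3a* and *Dnmt3b* and their cofactor *Dnmt3l*, which set imprints in the germ line, were named after their values were seen. *Dnmt3a* had 1203 normalized counts (8.25 TPM, and from 6.56 to 37.7 with other lengths), *Dnmt3b* 184 (2.83 TPM) and *Dnmt3l* 276 (10.1 TPM). *Trim28* had 18134 normalized counts, or 371 TPM, *Dnmt1* 14724 (167 TPM), *Uhrf1*, which brings DNMT1 to hemimethylated DNA, 8755 (162 TPM), *Ezh2*, a methyltransferase of the Polycomb complex, 6175 (147 TPM), and *Ctcf*, which binds the control region of *H19*, 7005 (123 TPM). *Zfp57*, named after its value was seen, had 1108 (28.4 TPM). Other lengths moved these values, as *Ezh2* had 84.0 TPM and *Ctcf* 131 with the union of exons. With the shortest transcript, *Dnmt1* had 281 TPM and *Zfp57* 44.2.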

How the data were processed

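RNAseq was performed on poly(A)-selected RNA from 3 *Ms4a15* OE and 3 control libraries of MF. The authors aligned reads to mm10 with STAR, assigned them to genes with HTSeq-count and ran DESeq2. The submitters' processing notes also name TopHat, Cufflinks and Cuffdiff, with no role. The labels and the methods differ on read length and RNA kit. The signal in the deposited table is the authors' mean, over the 6 libraries, of counts divided by size factors. Its other columns hold the authors' comparison of the groups (log2 fold change, its standard error, p-value, adjusted p-value and direction) and were not used. The table has no column for a single library, so the planned tests of *Ms4a15* OE against control were not run.

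Members and lists were chosen with earlier results of these data known. The assignment of genes to clusters, the minimum of 1 TPM, the decoding of reads and the motif search were chosen after the table was seen. Every member is named. The further imprinted genes and imprint factors were taken as 1 list. Its 5 genes with the highest level per kilobase of longest transcript (all factors) and those under 10 normalized counts are named, beside neighbours and partners of members. The 5 depend on the length, as *Slc38a4* (146 TPM) was above *Ctcf* (131) and *Ezh2* (84.0) with the union of exons.

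A minimum mean of 10 normalized counts was used. Transcript lengths and positions came from a GENCODE annotation of GRCm38, whereas the authors counted on UCSC knownGene, so gene models may differ. Symbols located 16161 genes (84.7%), 1485 of them through older symbols. Size factors were worked out from 3768 low genes, and each mean under 5 was then solved for whole reads, a step tested on simulated data. Poisson intervals (95%) of higher means used the reads that the mean implies over 6 libraries. Levels were recomputed with other lengths and other minimums. Computations used scipy 1.17.1, pandas 2.3.3, numpy 2.4.6 and matplotlib 3.10.9 under Python 3.11.15.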

Additional observations from a re-analysis of the deposited data

How the results depend on the processing

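The number of imprinted genes at or above the minimum was 20 with a minimum of 5, 10 or 20 normalized counts. It could not change, as these minimums lie between 4.79 and 30.1, where none of the imprinted genes found had its mean. Of all genes, 11.6% had a mean in that interval. With the union of exons or the shortest transcript as the length, 18 genes had 1 TPM or more, as with the longest transcript (48.6%, compared with 66.9% of all genes with a length), and 19 with no length. Clusters at 1 TPM or more numbered 11 with each of the 3 lengths, but 5 without the leading gene of each cluster, a setting that empties clusters of 1 gene by construction. Against the median of all genes, which by definition has as many genes above as below it, 18 imprinted genes were higher (48.6%). Against the median of the 67.7% of all genes with a mean of at least 10, 12 were higher (32.4%). The latter median is higher by construction, so a lower count is no trait of the imprinted genes. For single genes, 56 of 60 levels under another length or with no length were outside the counting interval and 4 inside. Each setting also rescales all genes together, so a level can move with no change in the length of that gene. This count therefore does not measure how far single levels depend on their own length. *Gnas* and *Nap1l4* were first and second under each length.

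No paired analysis was possible because the deposited mean pools the libraries and carries no replicate numbers. For the same reason, the other scaling, filter and pseudocount and the removal of single libraries, all planned for the comparison of the groups, were not run. Low genes could be followed through their decoded reads, a check chosen after seeing the data. Without each library in turn, the 17 low genes had 60 to 79 of their 82 reads left, and up to 2 of them had no reads. With means under 5, none could pass 10 in this way. The 20 higher genes could not be recomputed in this way. At this depth, the interval of 1 read in all libraries reaches up to about the mean of 1 normalized count (*Dlk1*, 1.05), so the order of the genes with 1 to 3 reads is not resolved.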

Other observations

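The 4 genes of the Dlk1-Meg3 cluster found in the table had 17 reads together, 7 in library A, 6 in B, 0 in C, 4 in D, 0 in E and 0 in F. The other 13 low genes had 65 reads together, 13 in library A, 16 in B, 3 in C, 14 in D, 11 in E and 8 in F. Over all genes with a mean under 5, the reads divided by the size factor were 7660 in library A, 7524 in B, 5501 in C, 7505 in D, 5532 in E and 5692 in F. Libraries A, B and D thus stood above C, E and F over low genes in general. The libraries are not assigned to *Ms4a15* OE or control, and this grouping was noticed in the values and not tested.

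Among 44 further imprinted genes listed, 30 were found by symbol. Of these, 21 had a mean of at least 10 normalized counts (70.0%, compared with 67.7% of all genes), and the median was 318, compared with 237. Beside *Igf2* and *Pon1*, 7 genes were under 10. *Begain*, between *Wdr25* and *Dlk1*, had 3 reads in library A, 4 in B, 2 in C, 3 in D, 2 in E and 0 in F. *Mapt*, a neuronal microtubule protein gene, had 10 reads in library A, 0 in B, 3 in C, 2 in D, 2 in E and 3 in F. *Qpct* had 6 reads, 1 in library B, 4 in D and 1 in E, and *Cpa4* had 4, 1 in library B and 3 in F. *Phactr2* and *Th*, the tyrosine hydroxylase gene, had 1 read each, both in library A. *Cntn3* had a mean of 7.05. At the other end, *Slc38a4*, an amino acid transporter gene named after its value was seen, had 6872 normalized counts, or 116 TPM.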
